A study of Mus musculus with 12 samples.

Results

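Transcripts of 36 genes of the lysosome were followed in mouse BV2 cells cultured alone or with neutrophils. The genes were given as a list of soluble lysosomal enzymes and their activators, lysosomal membrane proteins and transporters, and the transcription factor Tfeb. Each was found by its symbol on exactly 1 row of the deposited table, so 36 of 27487 listed genes are described. The list was drawn up by function and not by any measured value, although results of the same data were known when it was drawn up. The label matched the annotation carried by the table: 34 of the 36 hold the KEGG term for the lysosome, and the exceptions are Grn and Tfeb.

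The study sequenced polyadenylated RNA from 3 groups of 4 libraries, 12 altogether, to ask how neutrophils and their extracellular traps change gene expression in microglia. BV2 is an immortalised line of mouse microglia, the resident macrophages of the nervous system, and all groups share it. In the CTR group it was cultured alone. In Neu it shared its culture with primary mouse neutrophils. For Neu+NETS the primary mouse neutrophils had first been treated with PMA, a phorbol ester that drives them to expel chromatin laced with granule proteins, the neutrophil extracellular traps or NETs. Not given in the sources used here are the strain and age of the mice, the ratio of cells, the length of the culture and any removal of neutrophils ahead of RNA extraction. No library of BV2 cells given PMA alone was analysed here, so an effect of carried-over PMA and an effect of NETs cannot be told apart.

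Lysosomes are acidic organelles in which hydrolases break down proteins, glycans, glycosaminoglycans and lipids that arrive by phagocytosis, endocytosis and autophagy. Most soluble hydrolases are tagged with mannose phosphate in the Golgi and carried to the lysosome by receptors, while heavily glycosylated membrane proteins line its boundary and export the breakdown products. Tfeb and its relatives Tfe3, Mitf and Tfec bind E-boxes with the core CACGTG in promoters of many lysosomal genes, and Tfeb is kept in the cytoplasm by phosphorylation when nutrients are plentiful. Microglia and other macrophages hold many lysosomes because they take up debris, and loss of single hydrolases causes storage diseases that affect the brain.

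The E-box core was looked for in the promoters of the list because Tfeb is a member and its relatives are measured beside it. RefSeq promoters on build GRCm38.p6 (250 bases before to 50 after a transcript start) were at hand for 34 of the 36 genes, and the deposited table itself uses GRCm39. CACGTG, which reads the same on both strands, was found in 10 of the 34 (29.4%) and in 8.09% of the 27025 genes of the promoter table. The longer form TCACGTGA, which contains that core, was found in Cln3, Gla and Mcoln1, or 8.82% against 1.12%. The full CLEAR consensus, a palindrome that contains both shorter forms, was found in Cln3 only among the 34, or 2.94%, against 0.370% of all genes. GAGGAAGT, a form bound by the macrophage factor PU.1, was found on either strand in Gla and Gusb, or 5.88% against 3.69%. A match describes letters and not a bound site. The 80-base stretches below, all upstream of the start and written 5′ to 3′ on the gene's strand, are those of 7 of the 10 genes, chosen because they hold several cores (Lamp1, Mcoln1, Cln3, Gla) or belong to genes with large differences between groups (Naglu, Arsa, Lgmn). For Lgmn, one of 2 annotated starts is shown. Capitals mark the core.
Lamp1, chr8:13159081-13159160, plus strand: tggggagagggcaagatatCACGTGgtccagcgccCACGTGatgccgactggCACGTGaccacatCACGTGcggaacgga
Mcoln1, chr8:3500439-3500518, plus strand: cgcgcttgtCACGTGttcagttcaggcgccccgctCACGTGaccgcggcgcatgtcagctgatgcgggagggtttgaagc
Cln3, chr7:126583317-126583396, minus strand: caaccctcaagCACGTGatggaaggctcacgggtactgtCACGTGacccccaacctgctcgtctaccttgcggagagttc
Gla, chrX:134601166-134601245, minus strand: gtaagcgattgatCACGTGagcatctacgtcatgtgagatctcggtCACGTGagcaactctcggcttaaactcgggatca
Naglu, chr11:101070014-101070093, plus strand: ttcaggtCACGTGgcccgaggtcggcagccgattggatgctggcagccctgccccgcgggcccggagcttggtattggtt
Arsa, chr15:89477425-89477504, minus strand: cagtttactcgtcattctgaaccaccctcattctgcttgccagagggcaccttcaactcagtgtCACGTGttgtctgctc
Lgmn, chr12:102439093-102439172, minus strand: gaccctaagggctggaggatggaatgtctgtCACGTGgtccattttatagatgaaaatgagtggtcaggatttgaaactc
The Lamp1 stretch holds 4 cores within 80 bases. Single cores in Glb1, Gaa and Sgsh complete the 10.

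Totals per library ran from 53512190 to 68316549 in estimated counts, and a fragment appears to stand for about 4 such counts. Macrophage genes were abundant, with Csf1r, the receptor for colony-stimulating factor 1, at 91.3 ± 2.99 FPKM (mean ± SD, n = 4) and Cd68 at 419 FPKM in CTR, while the resident-microglia receptor gene P2ry12 stood at 0.658 FPKM. The labels also name retina as the tissue. Of 8 retinal markers analysed here, 5 stayed under 0.1 FPKM in every library, among them the photoreceptor genes Sag, Opn1sw and Arr3. The photoreceptor gene Pde6b reached 0.958 FPKM, the neuronal gene Slc17a7 reached 0.260, and the glial gene Glul, which many cell types express, stood at 24.0 in CTR. Neu replicate 4 stood apart from the other Neu libraries: set against each of them, on counts divided by 4, chi-square over its degrees of freedom was 4.43 to 4.79, and 1.95 to 2.18 among the others. It was the highest Neu library for 25 of the 36 lysosomal genes. Without it the counts of these genes called in each comparison, given below, were equal, although between the co-cultures Lipa lost its call and Neu1 gained one. The labels name no batch. Nothing in them says that replicates were separate cultures, so the p-values reflect only how far these libraries differ, which may be technical.

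All 36 genes passed the filter on low counts, and the lowest estimated count of any of them in any library was 519. Their levels in CTR ran from 893 ± 18.7 FPKM (fragments per length of transcript and depth of library) for Psap to 2.09 ± 0.0851 for Sgsh. Psap, Grn, Lgmn and Lamp1 together made up 62.9% of the summed FPKM of the list in CTR, 62.8% in Neu and 56.9% in Neu+NETS. The first 8 genes of the CTR order, which were Psap, Grn, Lgmn, Lamp1, Laptm5, Npc2, Hexa and Gusb, each lay above the next without overlap of their libraries. Further down neighbours often overlapped, so that 20 of the 35 neighbouring pairs were apart in CTR, 17 in Neu and 24 in Neu+NETS. Gla, for example, overlapped both Lipa above it and Gaa below it in CTR. Replicates were close, with a median coefficient of variation of 3.28% in CTR, 3.50% in Neu and 3.71% in Neu+NETS and a highest one of 12.1%, for Sgsh in Neu.

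**Figure D1:**
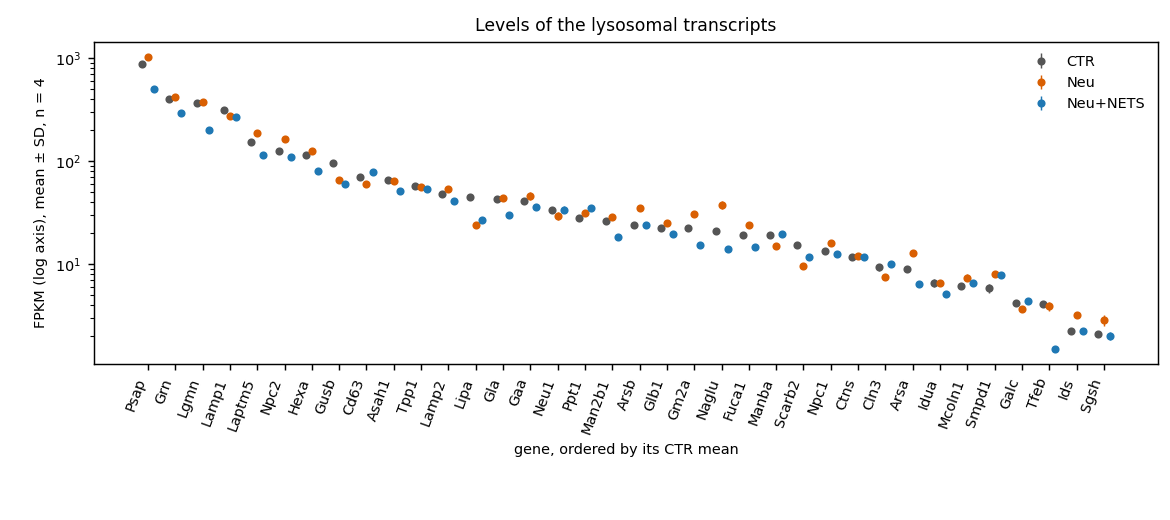
Mean FPKM ± SD of 4 libraries on a log axis for the 36 lysosomal genes, ordered by their CTR mean, with CTR in grey, Neu in orange and Neu+NETS in blue. Levels span from 893 FPKM (Psap) to 2.09 FPKM (Sgsh) in CTR, and the Neu+NETS point lies lowest for Psap, Grn and Lgmn.

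The summed FPKM of the 36 genes was 3107 to 3203 in the CTR libraries, 3279 to 3479 in the Neu libraries and 2187 to 2289 in the Neu+NETS libraries. The groups did not overlap, and Neu+NETS was the lowest. As a share of all FPKM this was 1.05% to 1.08%, 1.15% to 1.20% and 0.750% to 0.781%. Without Psap, Grn, Lgmn and Lamp1 the sums were 1154 to 1180, 1222 to 1284 and 944 to 984, in the same order of groups. In bulk RNA, fewer cells of a type and less RNA per cell cannot be told apart.

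**Figure D2:**
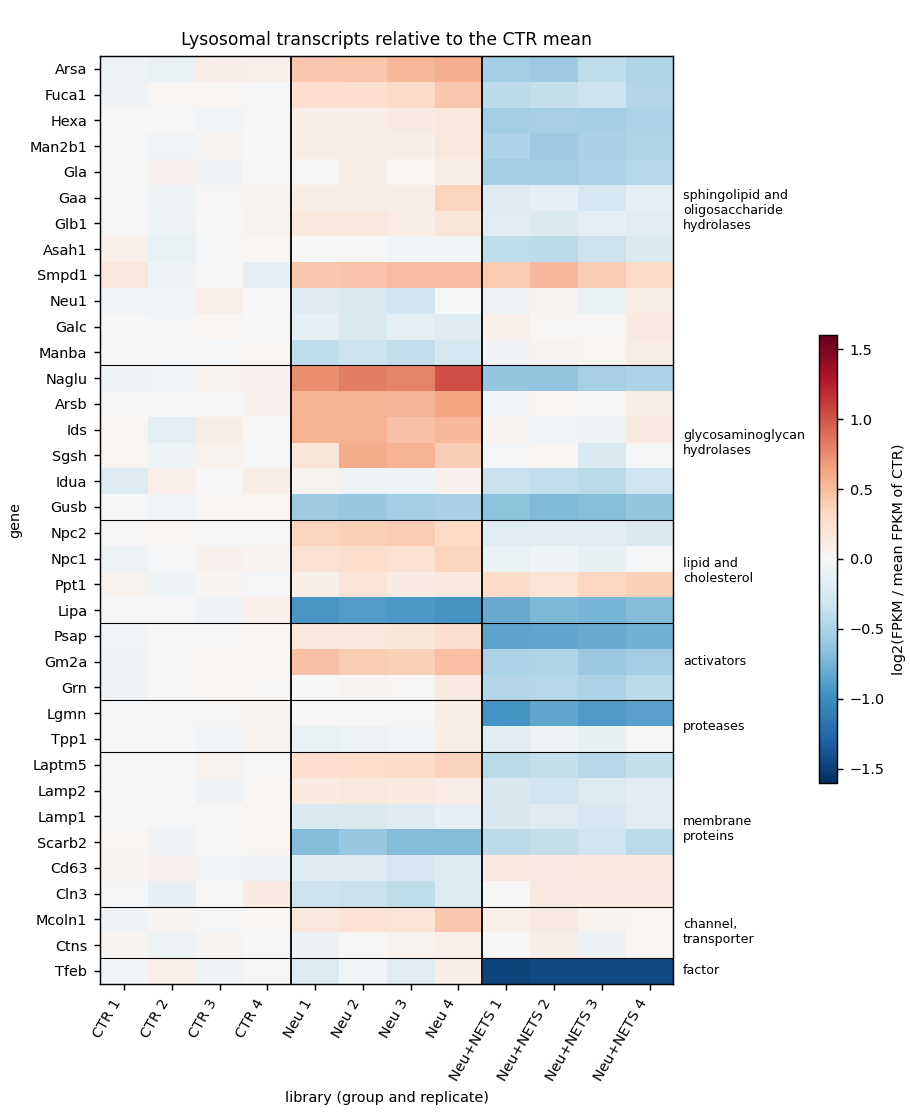
Each row is a gene, grouped by role, and each column a library; colour is the log2 ratio of FPKM to the CTR mean of that gene, red above and blue below. Most rows are red in the 4 Neu libraries and blue in the 4 Neu+NETS libraries; Lipa, Scarb2 and Gusb are blue in both, and Tfeb is darkest in Neu+NETS.

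With neutrophils, most of the lysosomal genes rose modestly and a smaller set fell. In Neu 22 of 36 were called higher and 9 lower against CTR (edgeR's quasi-likelihood F test, adjusted p under 0.05). Of the 16387 genes tested 54.1% were called, 26.1% higher and 27.9% lower. Their median log2 fold change was 0.19, against 0.02 for all genes tested, and the values ran from -0.87 (Lipa) to 0.91 (Naglu). Log2 fold changes rest on the estimated counts and on edgeR's scaling between libraries (TMM), and so can differ from a ratio of mean FPKM. The libraries of Neu lay wholly above those of CTR for 19 of the genes and wholly below for 8, on FPKM, against 22.5% and 29.0% of all genes. Only 8 of the 36 changed by at least 0.5 on the log2 scale, 6 upward and 2 downward, where 14.2% and 11.7% of all genes did.

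With PMA-stimulated neutrophils the lysosomal genes mostly fell. In Neu+NETS 24 of 36 were lower and 3 higher than in CTR, where 23.7% and 21.6% of all genes tested were, or 45.3% in all. The median log2 fold change was -0.29, against 0.00 for all genes, and the range was -1.50 (Tfeb) to 0.36 (Smpd1). Libraries were apart for 22 genes downward and 3 upward, against 18.4% and 23.7% of all genes. Of the 36, 12 fell by at least 0.5 on the log2 scale, as did 11.4% of all genes, and 0 rose by that much, against 5.13%.

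Set against each other, the co-cultures differed in most of the lysosomal genes. In Neu+NETS 26 of 36 lysosomal genes were lower and 6 higher than in Neu, where 33.1% and 29.4% of all genes tested were, or 62.5% in all, and the median log2 fold change was -0.48 against -0.05. Of the 36, 17 were lower by at least 0.5 on the log2 scale, against 21.8% of all genes, and 0 were higher by that much, against 15.8%. Libraries were apart for 24 genes downward and 6 upward, against 26.9% and 32.6%. The 3 comparisons share libraries, so they are not independent of one another. Neu lay above CTR and CTR above Neu+NETS, with all 3 ranges apart, for 12 of the 36 genes, where 5.62% of all genes did so: Lamp2, Npc2, Gaa, Glb1, Hexa, Man2b1, Naglu, Psap, Arsa, Fuca1, Laptm5 and Gm2a. The order Neu+NETS over CTR over Neu held for Cd63 alone among the 36 and for 10.9% of all genes. None of the 36 was lowest in CTR with all ranges apart, where 2.37% of all genes had the order Neu over Neu+NETS over CTR and 0.842% the order Neu+NETS over Neu over CTR. Measured by limma on log2(FPKM + 1), without TMM, all genes compared between Neu+NETS and Neu had a median of 0.10. The lysosomal genes had one of -0.35, with 24 lower and 8 higher. With edgeR on library totals alone these medians were 0.02 and -0.40.

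**Figure D3:**
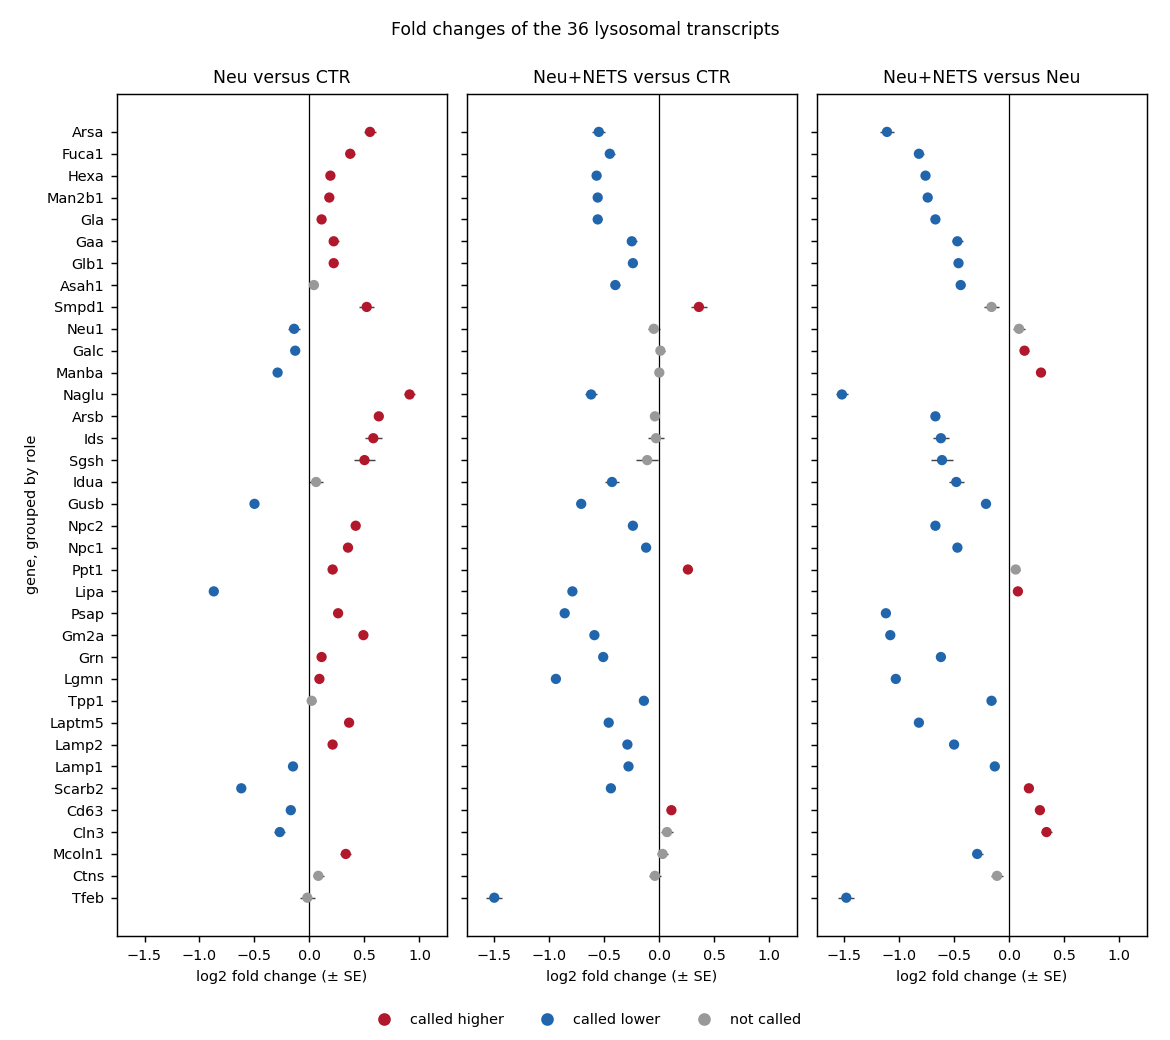
Log2 fold change ± SE of each gene in the 3 comparisons, grouped by role; red points were called higher, blue lower and grey not called (adjusted p under 0.05). Red points prevail in Neu versus CTR (22 of 36) and blue points in the comparisons of Neu+NETS (24 and 26 of 36).

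Among the enzymes that degrade glycosaminoglycans, the sulfated sugar chains of the matrix and cell surface, Naglu differed most between groups. It encodes alpha-N-acetylglucosaminidase, which acts on heparan sulfate, and spans chr11:100960838-100968498 on GRCm39, plus strand. Its FPKM were 19.8, 20.2, 21.6 and 21.8 in CTR, 34.9, 36.6, 36.1 and 42.5 in Neu, and 13.5, 13.4, 14.4 and 14.8 in Neu+NETS. All Neu libraries were above and all Neu+NETS libraries below every CTR library, and Neu replicate 4 was the highest. The rise in Neu was 1.87-fold (log2 fold change 0.91 ± 0.053, SE; adjusted p = 2.3e-10), and 0.85 on the log2 scale without Neu replicate 4. In Neu+NETS Naglu fell 1.54-fold against CTR (adjusted p = 7.0e-08) and stood 2.88-fold below Neu (log2 fold change -1.52 ± 0.054, adjusted p = 1.8e-13).

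Arsb, the sulfatase of dermatan sulfate, read 24.0, 23.2, 23.3 and 24.9 FPKM in CTR, 35.0, 35.1, 34.6 and 36.9 in Neu, and 23.0, 24.4, 23.2 and 25.4 in Neu+NETS. Neu lay above both other groups, whose libraries overlapped. The Neu rise was 1.54-fold (adjusted p = 3.8e-11), while Neu+NETS against CTR gave a log2 fold change of -0.04 ± 0.032 (adjusted p = 0.361). Ids, the iduronate sulfatase, and Sgsh, the heparan sulfamidase, are low genes that followed the same course. Ids went from 2.23 ± 0.152 FPKM in CTR to 3.21 ± 0.102 in Neu (1.50-fold, adjusted p = 4.1e-06) and 2.25 ± 0.157 in Neu+NETS (adjusted p = 0.768 against CTR). Sgsh went from 2.09 ± 0.0851 to 2.85 ± 0.346 (1.42-fold, adjusted p = 3.1e-04) and 2.01 ± 0.167 (adjusted p = 0.421), and its span overlaps that of Card14 on the other strand, at 2.90 FPKM in CTR.

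Gusb, beta-glucuronidase, moved the other way. It read 95.2, 93.0, 98.4 and 98.1 FPKM in CTR, 64.9, 63.1, 66.1 and 67.4 in Neu, and 60.9, 58.9, 60.2 and 62.7 in Neu+NETS. Both co-cultures lay well below CTR, and it was the one member with all ranges apart in the order CTR, Neu, Neu+NETS, an order that 1.85% of all genes had. The falls were 1.41-fold for Neu (-0.50 ± 0.027 on the log2 scale, adjusted p = 7.8e-11) and 1.64-fold in Neu+NETS (-0.71 ± 0.027, adjusted p = 1.7e-12). Idua, the iduronidase that acts beside Ids, stood at 6.61 ± 0.624 FPKM in CTR and 6.62 ± 0.340 in Neu (adjusted p = 0.502) and fell 1.34-fold to 5.09 ± 0.161 in Neu+NETS (adjusted p = 5.2e-05). Of these 6 glycosaminoglycan hydrolases 4 rose and 1 fell in Neu, against 26.1% and 27.9% of all genes tested. In Neu+NETS 3 fell, against 23.7% of all genes, and all 6 were lower than in Neu, against 33.1%.

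The 12 hydrolases of sphingolipids and oligosaccharides included 8 that rose and 3 that fell in Neu, and 8 that fell and 1 that rose in Neu+NETS. Among all genes tested 26.1% rose and 27.9% fell in Neu, and 23.7% fell and 21.6% rose in Neu+NETS. Arsa, which desulfates sulfatide, read 8.49, 8.35, 9.65 and 9.51 FPKM in CTR, 12.1, 12.2, 13.0 and 13.5 in Neu, and 6.15, 6.01, 6.78 and 6.42 in Neu+NETS. No libraries of different groups overlapped. Against CTR its log2 fold changes were 0.55 ± 0.059 for Neu (adjusted p = 4.6e-07) and -0.55 ± 0.060 for Neu+NETS (adjusted p = 9.4e-07), and the value was -1.11 ± 0.060 between the co-cultures (adjusted p = 4.5e-11). Fuca1, the fucosidase of glycoproteins, followed the same order at 19.3 ± 0.593, 24.0 ± 1.32 and 14.6 ± 0.528 FPKM in CTR, Neu and Neu+NETS.

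Hexa, the alpha subunit of beta-hexosaminidase, is the most abundant of these hydrolases. Its libraries read 117, 115, 113 and 117 FPKM in CTR, 125, 125, 127 and 130.1 in Neu, and 79.2, 80.4, 79.9 and 82.1 in Neu+NETS. The step up in Neu was small (1.14-fold, adjusted p = 2.6e-06) and the step down in Neu+NETS larger (1.49-fold, adjusted p = 5.4e-12). Man2b1, the lysosomal alpha-mannosidase, had nearly the same folds, 1.13 up (adjusted p = 3.5e-05) and 1.48 down (adjusted p = 6.2e-11). The acid alpha-glucosidase gene Gaa, whose product breaks down glycogen, and the beta-galactosidase gene Glb1 changed less, with log2 fold changes of 0.22 in Neu for both and of -0.25 and -0.24 in Neu+NETS. For Gaa the Neu libraries read 44.1, 43.9, 43.8 and 52.7 FPKM, and the rise was 0.16 on the log2 scale without Neu replicate 4 (adjusted p = 3.4e-04). Glb1 shares its span with Tmppe on the same strand, which stood at 5.94 FPKM in CTR, so some of its reads are uncertain.

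Gla, the alpha-galactosidase, and Asah1, the acid ceramidase, differed mainly in Neu+NETS. Gla fell 1.48-fold there, from 42.5 ± 1.63 to 29.8 ± 1.05 FPKM (adjusted p = 9.3e-10), while its 1.08-fold rise in Neu (adjusted p = 0.0106) was lost with limma on log2(FPKM + 1) (adjusted p = 0.158) and its Neu and CTR libraries overlapped. Asah1 fell 1.32-fold to 51.2 ± 3.03 FPKM in Neu+NETS (adjusted p = 4.3e-07) and stood at 65.3 ± 3.52 in CTR and 64.4 ± 1.10 in Neu (adjusted p = 0.472).

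Smpd1, the acid sphingomyelinase that makes ceramide, was higher in both co-cultures. It read 6.65, 5.57, 5.83 and 5.34 FPKM in CTR, 7.88, 8.04, 8.21 and 8.27 in Neu, and 7.76, 8.40, 7.76 and 7.23 in Neu+NETS. All co-culture libraries were above all CTR libraries, and the co-cultures overlapped. The rises were 1.44-fold (log2 fold change 0.52 ± 0.070, adjusted p = 5.8e-06) and 1.29-fold (0.36 ± 0.070, adjusted p = 3.9e-04). Between the co-cultures the log2 fold change of -0.16 ± 0.069 was near the threshold (adjusted p = 0.0524), and it passed when CTR replicate 1 or 4 or Neu+NETS replicate 2 was left out, with the stricter filter and on counts divided by 4 (adjusted p 0.0172 to 0.0436).

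Manba, Galc and Neu1 fell in Neu. Manba, the beta-mannosidase, read 19.2, 18.8, 19.0 and 19.7 FPKM in CTR, 14.5, 15.1, 14.6 and 15.8 in Neu, and 18.5, 20.0, 19.7 and 20.9 in Neu+NETS. Neu alone lay below the others, by 1.23-fold against CTR (adjusted p = 9.5e-07) and 1.22-fold against Neu+NETS (adjusted p = 7.4e-07), while Neu+NETS and CTR overlapped (adjusted p = 0.960). Galc, which removes galactose from the lipids of myelin, fell 1.09-fold to 3.64 ± 0.125 FPKM in Neu (adjusted p = 0.00878) and stood at 4.33 ± 0.175 in Neu+NETS (adjusted p = 0.818 against CTR). Neu1, the sialidase, stood at 33.8 ± 1.53, 29.6 ± 2.51 and 33.8 ± 2.54 FPKM. Its call in Neu (log2 fold change -0.14 ± 0.053, adjusted p = 0.0391) was lost under RLE scaling (adjusted p = 0.0594) and without any one of CTR replicates 3 and 4 and Neu replicates 1, 2 and 3 (adjusted p 0.0669 to 0.137).

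Lipid and cholesterol handling held the steepest fall in Neu. Lipa, the lysosomal acid lipase that frees cholesterol and fatty acids from lipoprotein esters, spans chr19:34469718-34504874 on GRCm39, minus strand. It read 44.3, 44.9, 43.5 and 47.8 FPKM in CTR, 23.6, 24.2, 23.8 and 23.5 in Neu, and 25.8, 27.3, 26.9 and 27.8 in Neu+NETS. Both co-cultures lay far below CTR, and close to each other. The falls were 1.82-fold (log2 fold change -0.87 ± 0.031, adjusted p = 5.1e-13) and 1.73-fold (-0.79 ± 0.031, adjusted p = 2.9e-12). The small gap between the co-cultures (0.08 ± 0.031, adjusted p = 0.0430) lost its call without any one of Neu replicates 1, 3 and 4 and Neu+NETS replicates 2, 3 and 4 (adjusted p 0.0564 to 0.120).

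Npc2 and Npc1 pass the freed cholesterol from the lumen to the limiting membrane, Npc2 as a soluble carrier and Npc1 as a membrane protein. Npc2 rose from 127 ± 3.10 to 164 ± 3.86 FPKM in Neu (1.34-fold, adjusted p = 1.3e-09) and fell to 111 ± 1.85 in Neu+NETS (1.18-fold, adjusted p = 2.4e-06). Npc1 rose from 13.3 ± 0.596 to 16.2 ± 0.569 in Neu (1.27-fold, adjusted p = 1.1e-07). In Neu+NETS it stood at 12.6 ± 0.396, its span overlaps that of Rmc1 on the other strand, and its call (adjusted p = 0.00530) was lost with library totals alone (adjusted p = 0.102). In Neu, then, Lipa fell while both cholesterol carriers rose. Ppt1, which removes palmitate from proteins, rose in both, from 28.2 ± 1.10 to 31.4 ± 1.21 FPKM in Neu (adjusted p = 2.5e-04) and 35.1 ± 1.63 in Neu+NETS (adjusted p = 3.4e-05).

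Activator proteins, here those of Psap and Gm2a, present lipids to the hydrolases, and Grn was grouped with them. Psap, whose product prosaposin is cut into the saposins, is the most abundant gene of the list and spans chr10:60113449-60138376 on GRCm39, plus strand. Its libraries read 868, 891, 899.7 and 913 FPKM in CTR, 1016, 1011, 1020 and 1063 in Neu, and 499, 500.1, 511 and 525 in Neu+NETS. The 3 groups were far apart relative to their spread. It rose 1.20-fold in Neu (log2 fold change 0.26 ± 0.020, adjusted p = 8.8e-09), fell 1.81-fold in Neu+NETS (-0.86 ± 0.020, adjusted p = 5.4e-15), and was 2.17-fold lower in Neu+NETS than in Neu (adjusted p = 4.6e-17).

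Gm2a, the activator that presents gangliosides to beta-hexosaminidase, showed the same order with wider relative steps in Neu. Its FPKM were 21.6, 22.7, 22.9 and 22.9 in CTR, 31.2, 29.9, 29.2 and 31.4 in Neu, and 15.8, 16.1, 14.9 and 15.3 in Neu+NETS. Its rise was 1.40-fold (adjusted p = 1.8e-09) and its fall 1.50-fold (adjusted p = 3.9e-10). Grn encodes progranulin, which binds prosaposin and is needed for normal lysosome function in microglia. It read 389, 406, 412 and 407 FPKM in CTR, 406, 416, 407 and 446 in Neu, and 292, 295, 283 and 302 in Neu+NETS. Neu overlapped CTR, and the 1.08-fold rise called by edgeR (adjusted p = 0.00189) was not called with limma on log2(FPKM + 1) (adjusted p = 0.167). The fall in Neu+NETS was 1.42-fold (adjusted p = 8.5e-11).

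**Figure D4:**
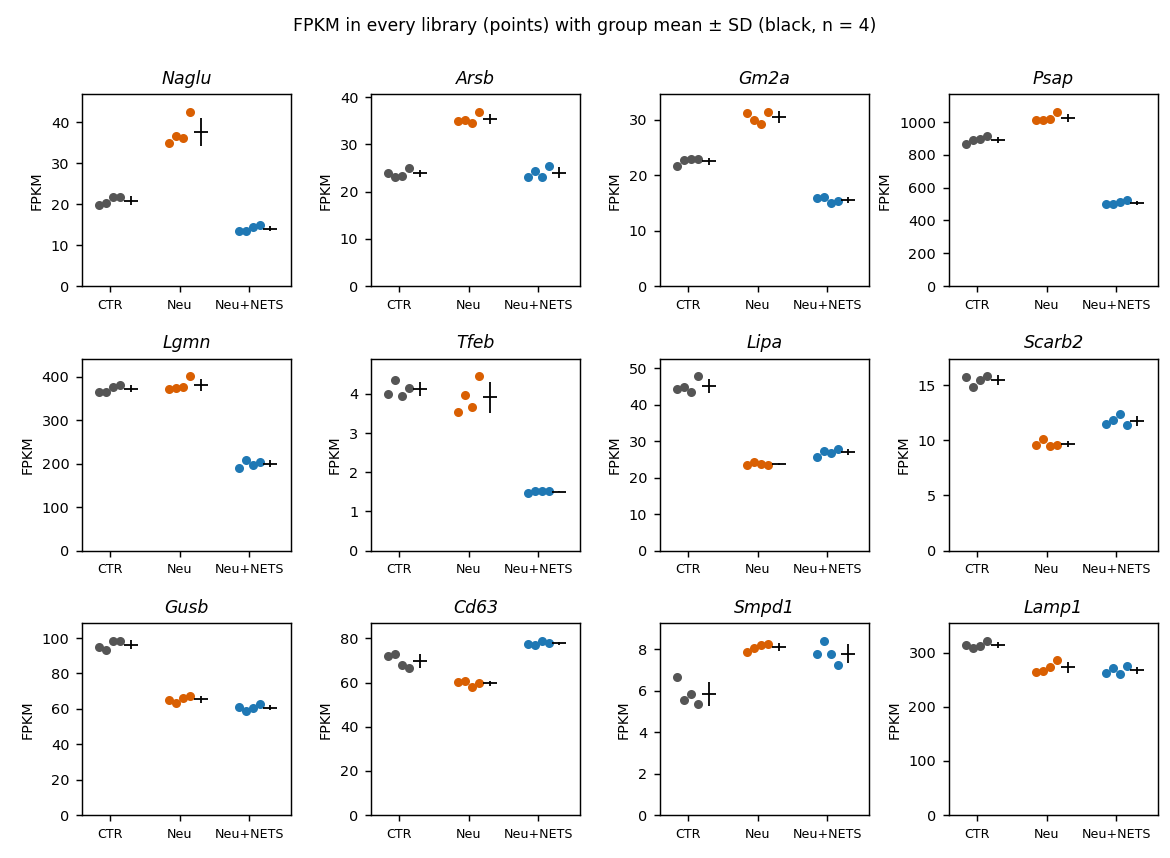
FPKM in each of the 12 libraries (points, from 0) with the group mean ± SD (black, n = 4) for 12 of the genes. Naglu, Gm2a and Psap are highest in Neu and lowest in Neu+NETS, Lipa, Scarb2, Gusb and Lamp1 are lower in both co-cultures, and Tfeb and Lgmn are lower in Neu+NETS only.

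The list holds 2 proteases outside the cathepsin family, Lgmn and Tpp1, and Lgmn was the one with the larger fall in Neu+NETS. It encodes legumain, which cleaves after asparagine and processes cathepsins. Its FPKM were 366, 365, 376 and 382 in CTR, 371, 375, 376 and 401 in Neu, and 191, 209, 198 and 203 in Neu+NETS. CTR and Neu overlapped, with a 1.06-fold rise (adjusted p = 0.0101; 0.391 with limma on log2(FPKM + 1)), and Neu+NETS lay 1.92-fold below CTR (log2 fold change -0.94 ± 0.027, adjusted p = 6.0e-14). Tpp1, a tripeptidyl peptidase, stood at 56.9 ± 1.69, 55.6 ± 3.48 and 53.5 ± 2.88 FPKM. Its groups overlapped, and the call in Neu+NETS against CTR (log2 fold change -0.14 ± 0.039, adjusted p = 0.00863) was lost with library totals alone (adjusted p = 0.0919).

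The membrane proteins did not move as 1 group: in Neu 2 of 6 rose and 4 fell, and in Neu+NETS 4 fell and 1 rose. All genes tested had 26.1% higher and 27.9% lower in Neu, and 23.7% lower and 21.6% higher in Neu+NETS. Lamp1 and Lamp2 are the major glycoproteins of the lysosomal membrane. Lamp1 read 314, 308, 313 and 322 FPKM in CTR, 265, 267, 273 and 286 in Neu, and 262, 271, 261 and 275 in Neu+NETS. It was lower in both co-cultures, by 1.11-fold (adjusted p = 4.4e-05) and 1.22-fold (adjusted p = 4.2e-08), and the co-cultures overlapped (adjusted p = 9.8e-05 between them, 0.374 with limma on log2(FPKM + 1)). Lamp2 read 48.5, 48.5, 46.5 and 49.4 in CTR, 53.5, 54.8, 53.6 and 52.4 in Neu, and 40.5, 38.6, 41.3 and 42.4 in Neu+NETS. It rose 1.16-fold in Neu (adjusted p = 1.8e-05) and fell 1.23-fold in Neu+NETS (adjusted p = 5.7e-07), so the pair went opposite ways in Neu.

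Scarb2, the receptor that brings glucocerebrosidase to the lysosome, read 15.7, 14.8, 15.5 and 15.8 FPKM in CTR, 9.53, 10.1, 9.51 and 9.54 in Neu, and 11.5, 11.8, 12.4 and 11.4 in Neu+NETS. It shared with Lipa the order CTR over Neu+NETS over Neu with all ranges apart, which 2.11% of all genes had. The falls were 1.53-fold for Neu (-0.62 ± 0.037 on the log2 scale, adjusted p = 3.4e-10) and 1.35-fold in Neu+NETS (-0.44 ± 0.037, adjusted p = 5.3e-08). Laptm5, a lysosomal membrane protein of blood cells, rose 1.28-fold in Neu from 154 ± 3.94 to 190.0 ± 6.28 FPKM (adjusted p = 2.4e-09) and fell 1.38-fold to 115 ± 3.17 in Neu+NETS (adjusted p = 1.9e-10).

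Cd63, a tetraspanin of late endosomes and exosomes, read 72.0, 72.9, 67.9 and 66.4 FPKM in CTR, 60.3, 60.6, 58.1 and 59.9 in Neu, and 77.6, 77.2, 78.9 and 77.7 in Neu+NETS. It was lowest in Neu and highest in Neu+NETS. It fell 1.12-fold in Neu (adjusted p = 2.6e-04) and rose 1.08-fold in Neu+NETS (adjusted p = 0.0111). Cln3, a membrane protein mutated in juvenile Batten disease, fell 1.21-fold in Neu to 7.41 ± 0.405 FPKM (adjusted p = 2.5e-04) and stood at 9.30 ± 0.686 in CTR and 10.1 ± 0.466 in Neu+NETS (adjusted p = 0.318). Its end overlaps that of Apobr on the other strand, which was at 20.4, 28.9 and 20.0 FPKM in CTR, Neu and Neu+NETS, so reads of the shared stretch are uncertain.

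Mcoln1, the calcium channel of the lysosome, read 5.92, 6.33, 6.03 and 6.25 FPKM in CTR, 6.96, 7.21, 7.13 and 8.30 in Neu, and 6.51, 6.80, 6.36 and 6.27 in Neu+NETS. It rose 1.25-fold in Neu (adjusted p = 2.6e-05), and Neu+NETS overlapped CTR (adjusted p = 0.661). Ctns, the cystine exporter, stood at 11.7 ± 0.492, 11.9 ± 0.626 and 11.8 ± 0.647 FPKM and passed in no comparison (adjusted p = 0.235, 0.618 and, between the co-cultures, 0.0696).

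Tfeb itself had the largest fall of the 36 genes in Neu+NETS against CTR, while against Neu the value of Naglu was lower still. The gene spans chr17:48047955-48103344 on GRCm39, plus strand. Its FPKM were 4.00, 4.35, 3.96 and 4.16 in CTR, 3.55, 3.98, 3.66 and 4.45 in Neu, and 1.48, 1.51, 1.51 and 1.52 in Neu+NETS. CTR and Neu overlapped (log2 fold change -0.02 ± 0.070, adjusted p = 0.841), and every Neu+NETS library was below every other library. The fall was 2.83-fold against CTR (log2 fold change -1.50 ± 0.072, adjusted p = 3.7e-11) and 2.79-fold against Neu (adjusted p = 1.1e-11). Of its relatives, Tfe3 stood at 6.22 ± 0.561 FPKM in Neu and 4.39 ± 0.402 in Neu+NETS, where it fell by 0.50 on the log2 scale against CTR (adjusted p = 4.2e-06). Mitf rose from 4.10 ± 0.226 to 6.28 ± 0.474 in Neu (adjusted p = 6.4e-08) and fell to 3.05 ± 0.158 in Neu+NETS (adjusted p = 6.9e-06). Tfec, a low gene at 1.16 ± 0.0976 FPKM in CTR, fell in both (adjusted p = 0.0114 and 1.5e-05). RNA levels do not report where these proteins are in the cell.

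Of the 10 genes with a CACGTG core in the promoter window shown above, 8 rose and 2 fell in Neu, and 7 fell and 0 rose in Neu+NETS. Of the 24 without a core in the window, 13 rose and 7 fell in Neu, and 15 fell and 3 rose in Neu+NETS. Of all genes tested, 26.1% rose and 27.9% fell in Neu, and 21.6% rose and 23.7% fell in Neu+NETS. Lamp1, with 4 cores, fell in both co-cultures, and Mcoln1, with 2, rose in Neu. These counts are a description and no test was run on them.

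The rest of the lysosomal machinery was counted from lists drawn up by function, to be read against all genes tested, of which 26.1% rose and 27.9% fell in Neu, and 21.6% rose and 23.7% fell in Neu+NETS. Of the 88 tested genes with the KEGG lysosome term that are not among the 36, 36 rose (40.9%) and 30 fell (34.1%) in Neu (median log2 fold change 0.08), and 14 rose (15.9%) and 46 fell (52.3%) in Neu+NETS (median -0.18). Of 28 further hydrolases and activators 15 rose and 7 fell in Neu, and 4 rose and 17 fell in Neu+NETS. Hyal1, a hyaluronidase, rose 5.01-fold in Neu, from 8.31 ± 0.888 to 40.0 ± 0.884 FPKM (adjusted p = 1.0e-14). Pld4, a lysosomal nuclease, fell from 66.1 ± 4.87 to 16.4 ± 0.954 FPKM in Neu+NETS (log2 fold change -2.06 ± 0.050, adjusted p = 5.8e-15).

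Of 11 cathepsins 3 rose and 4 fell in Neu and 0 rose and 9 fell in Neu+NETS (median -0.83), among them Ctss, from 358 ± 11.6 to 179.7 ± 5.98 FPKM. The proton pump that acidifies the lysosome was divided: of 18 V-ATPase genes 8 rose and 6 fell in Neu, and 6 rose and 9 fell in Neu+NETS (median -0.11). Among its subunit genes, Atp6v0a1 rose 1.46-fold and Atp6v0a2 fell 1.45-fold in Neu, and in Neu+NETS Atp6v1h rose by 0.40 and Atp6v1b2 fell by 0.38 on the log2 scale. Other membrane proteins and transporters were divided too, with 12 of 36 higher and 13 lower in Neu and 11 higher and 19 lower in Neu+NETS. Among 17 genes of enzyme tagging and delivery, 8 rose and 8 fell in Neu and 3 rose and 11 fell in Neu+NETS. Nagpa, the enzyme that uncovers the mannose phosphate tag, fell from 32.3 ± 0.767 to 18.1 ± 1.08 FPKM in Neu (-0.78 ± 0.042 on the log2 scale, adjusted p = 8.7e-11) and 24.7 ± 0.996 in Neu+NETS (-0.44 ± 0.042, adjusted p = 2.2e-07). Of 21 genes of MiT/TFE factors and lysosomal nutrient signalling 6 rose and 7 fell in Neu, or 28.6% and 33.3%, which is close to the shares of all genes. In Neu+NETS 3 of them rose and 10 fell, or 14.3% and 47.6%.

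**Figure D5:**
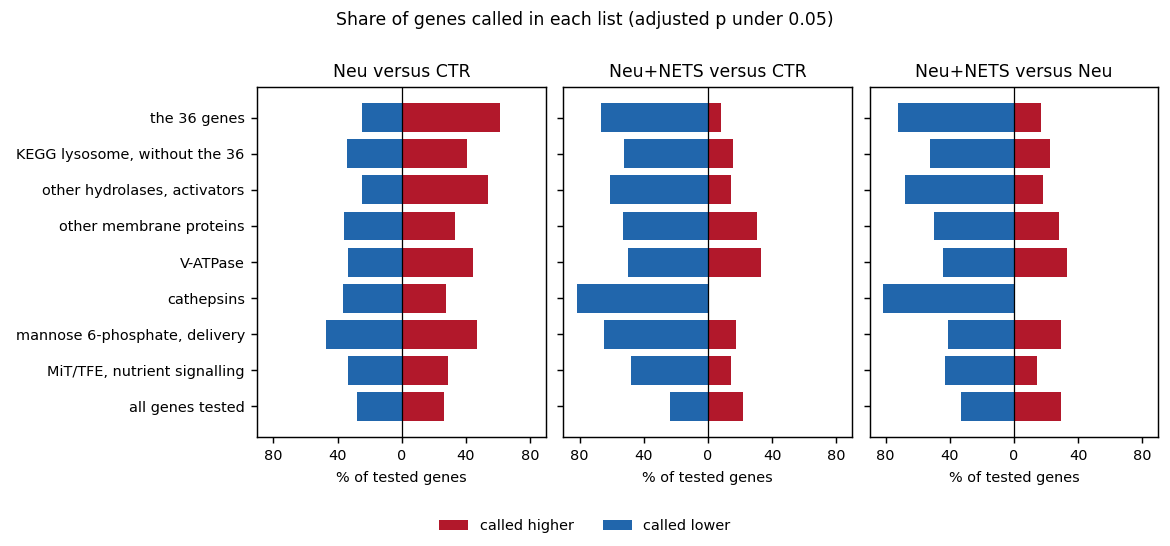
Share of the tested genes of each list called higher (red, right) or lower (blue, left) in the 3 comparisons. The 36 genes had 61.1% higher calls in Neu versus CTR and 66.7% lower calls in Neu+NETS versus CTR, where all genes tested had 26.1% and 23.7%.

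Summed markers of cell types differed between some of the groups. Over the 14 neutrophil markers of 21 listed that were analysed here, the summed level was 7.51 to 8.96 FPKM in the CTR libraries, 16.9 to 18.2 in Neu and 1.44 to 2.38 in Neu+NETS, so it had the same order of groups as the lysosomal sum. Each of the 14 had counts in some library, but so did all 27487 listed genes. The rest of the 21 were not found by symbol among these genes. Csf3r alone made up most of the sum in CTR, where no neutrophils were added, at 5.15 FPKM. It stood at 4.15 in Neu (adjusted p = 0.0873) and 0.691 in Neu+NETS (adjusted p = 1.7e-11 against CTR). In CTR, then, the sum came from cultures without added neutrophils. How much of the sum was neutrophil RNA in the co-cultures was not tested. Of the 14, Mpo, Elane, Ngp, Camp and S100a8 did not pass the filter on low counts and were not tested. In Neu 4 of the remaining markers were called higher. Of all genes 26.1% were, but that share counts tested genes only, so 4 of 14 cannot be set against it. Il1r2 went from 0.320 to 8.03 FPKM, which was most of the rise of the sum. The others called were Mmp9, from 0.548 to 1.46 (adjusted p = 1.2e-04), Lcn2, from 0.223 to 0.950 (adjusted p = 5.1e-06), and Prtn3, from 0.0645 to 0.399 (adjusted p = 0.0227). Csf3r, Hdc (0.211 to 0.131) and Mmp8 (0.185 to 0.126) had lower means in Neu without a call (adjusted p = 0.0873, 0.0894 and 0.736). Mcemp1 and Cxcr2 had higher means in Neu than in CTR, also without a call (adjusted p = 0.0579 and 0.618). The abundant neutrophil transcript S100a8 did not exceed 0.569 FPKM in any library and Ngp did not exceed 0.0652. Of 12 microglia and macrophage markers analysed here, the summed level was 1115 to 1174 FPKM in CTR, 1118 to 1158 in Neu and 689 to 703 in Neu+NETS. The part of neutrophil RNA, and of the drop in macrophage markers, in the lysosomal differences was not tested.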

How the data were processed

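RNA of 12 libraries (CTR, Neu and Neu+NETS, 4 each, grouped and numbered by the labels) was read from 1 table of 27487 genes. The estimated counts are whole numbers in the deposited table, and their totals differ between libraries. The FPKM are the authors' own, as named in the file headers. Per the submitters' processing notes HISAT2 2.0.4, StringTie 1.3.4d, edgeR and GRCm39 were used, with no role or order stated. The sources used here give neither annotation release nor strand setting. Of counts from 2 to 41, 33.0% are multiples of 4 (25% by an even spread), so a fragment appears to stand for about 4 units and totals overstate depth. There were 0 unmatched columns.

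Genes were kept by filterByExpr (16387), scaled by TMM (0.970 to 1.03) and fitted by edgeR 4.0.16 (glmQLFit, glmQLFTest; R 4.3.3) on all 12 libraries with a mean per group, checked on simulated data. P-values were adjusted by Benjamini-Hochberg over all genes tested, two-sided, and called under 0.05. Each SE was taken as the absolute log2 fold change over the root of F. The common biological coefficient of variation was 12.5%. The 36 members, the lists and the tests were chosen with earlier results of these data known; all 36 are named, and of each other list up to 4 called genes per comparison with the largest change and at least 5 FPKM in a group could be named, from which the text picks. Tfec, too low for that rule, and the neighbours of members were named as well.

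Alternatives were DESeq2 1.42.0, limma 3.58.1 on log2(FPKM + 1) and log2(FPKM + 0.1), RLE scaling, library totals alone, other filters, counts divided by 4, the compared groups alone, a replicate block and each library left out. Same-numbered libraries did not deviate together (12 correlations, -0.106 to 0.0766). A pairing with a small shared effect could look the same, so the check cannot exclude one. The labels state no pairing, and the replicate block was kept as an alternative. Promoters are from RefSeq (GRCm38.p6), which held 34 members.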

Additional observations from a re-analysis of the deposited data

Results flagged for a closer look

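In 4 of the 108 sets of 4 libraries (36 genes in 3 groups) 1 library lay far from the other 3, where chance alone flags about 5% of sets. For Gaa, Neu replicate 4 read 52.7 FPKM while the others read 43.8 to 44.1. For Scarb2, Neu replicate 2 read 10.1 FPKM and the others 9.51 to 9.54. For Cln3, Neu+NETS replicate 1 read 9.37 FPKM and each of the others 10.3. For Gm2a, CTR replicate 1 read 21.6 FPKM and the others 22.7 to 22.9. None of these 4 genes changed the direction or the call of any of its comparisons when that library was left out.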

How the results depend on the processing

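Of the values of the 36 genes in 3 comparisons under 22 alternatives (2376 in all), 2292 kept direction and call, 35 lost and 16 gained a call, and 33 changed sign, all of the latter uncalled. The counts of members called stayed within 1.5 times throughout. Leaving out 1 library gave 22 higher and 8 to 9 lower in Neu versus CTR, 3 and 24 in Neu+NETS versus CTR, and 5 to 6 and 26 to 28 between the co-cultures. The replicate block gave the same member counts (22 and 9, 3 and 24, 6 and 26) and 4270 higher and 4554 lower genes in Neu; it changed no call of a member. With limma on log2(FPKM + 1) the higher share of all calls was 39.0%, 58.3% and 59.6% in the 3 comparisons, against 48.3%, 47.6% and 47.1% with edgeR, and the median of all genes was -0.08, 0.05 and 0.10 against 0.02, 0.00 and -0.05.

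Sign changes in Neu versus CTR were those of Asah1 (-0.018 and -0.0182 with limma at pseudocounts of 1 and 0.1), Tpp1 (-0.034 and -0.0346 likewise) and Tfeb (0.0149 with the stricter filter). In Neu+NETS versus CTR with library totals alone, then limma at pseudocounts of 1 and 0.1, Ids read 0.0235, 0.0112 and 0.0155, Arsb 0.017, 0.00919 and 0.00952, Ctns 0.0201, 0.0118 and 0.0126, and Manba 0.0534, 0.0434 and 0.0454. Manba also read 0.0209 with DESeq2 and with RLE scaling, 0.00583 without a filter, 0.000161 with the stricter filter and 0.00129 on counts divided by 4, and Neu1 read 0.00694 with library totals alone. With 1 library left out the ranges were -0.00623 to 0.0905 (Idua), -0.011 to 0.0426 (Tpp1) and -0.0754 to 0.0217 (Tfeb) in Neu versus CTR, and -0.00722 to 0.0332 (Galc), -0.0735 to 0.002 (Ids) and -0.024 to 0.0264 (Manba) in Neu+NETS versus CTR. The cause was not tested.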
